A study of Mus musculus with 10 samples.

Results

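The genes described here are 44 genes of DNA replication and S phase, listed by name and grouped by their part in copying DNA. The list was chosen with earlier results of these data known. Of the 22180 genes with a usable probe set, 42 were members of this list. Rfc4, a subunit of the clamp loader, and Ccne2, a cyclin of S phase entry, lay only on probe sets that also carry the symbol of another gene, and no value is given for them. RNA came from plantaris muscle, a calf muscle, of male C57BL/6 mice whose age the labels do not state. The groups were muscle without overload and without inhibitor, muscle after 3 d or 10 d of overload by synergist ablation without inhibitor, and muscle after 3 d or 10 d of the same overload with a PDGF inhibitor. Synergist ablation removes the muscles that share the work of the plantaris, and a PDGF inhibitor blocks signalling by platelet-derived growth factor, a mitogen of mesenchymal cells; the compound is not named in the labels. Each group had 2 pools of RNA from 4 muscles, there was no group of unloaded muscle with the inhibitor, and the labels do not say that the pools of a group came from separate animals, so the p-values measure only how far these pools lie apart, which may partly be technical.

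Before a cell divides, origins of replication are licensed in G1 by the origin recognition complex, Cdc6 and Cdt1, which load the ring-shaped MCM helicase onto DNA. At the start of S phase the ring is activated by Cdc45, the GINS complex and Mcm10, primase and DNA polymerase alpha lay down primers, and the sliding clamp PCNA, loaded by replication factor C, holds the other polymerases on the template. E2F transcription factors, which the retinoblastoma protein can hold in check, are known activators of many of these genes. Adult muscle fibres are post-mitotic, and the cells that divide in loaded muscle are satellite cells, fibroblasts, macrophages and vessel cells.

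Because E2F is the known shared regulator of the family, the promoter sequences of members are shown first, from RefSeq on GRCm38.p6. Of 44 members, 36 had a window reaching 250 bases before to 50 bases after a start of transcription. An E2F motif was searched on both strands as any of the words TTTCCCGC, TTTGGCGC, TTTCGCGC or TTTGCCGC. The stretches below belong to the member with the largest change at 3 d that holds a match in each of 6 role groups, to Mcm6, which was added after its values were seen, and to Rrm2, the member with the largest change that holds none. They are written 5′ to 3′ on the gene's strand, with matches in capitals. Those of 200 bases end just before the start, and those of 30 bases surround a match that lies after the start or belong to a gene with several starts.

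Mcm5, chr8:75109309-75109508, plus strand: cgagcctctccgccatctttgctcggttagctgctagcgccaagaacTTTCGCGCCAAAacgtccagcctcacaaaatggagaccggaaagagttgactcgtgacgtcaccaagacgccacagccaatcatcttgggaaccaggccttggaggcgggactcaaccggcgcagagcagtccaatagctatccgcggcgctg
Mcm6, chr1:128359706-128359905, minus strand: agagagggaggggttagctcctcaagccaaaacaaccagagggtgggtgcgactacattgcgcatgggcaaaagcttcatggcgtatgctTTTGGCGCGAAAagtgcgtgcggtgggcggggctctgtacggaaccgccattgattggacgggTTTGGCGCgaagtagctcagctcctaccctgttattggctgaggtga
Gins3, chr8:95633359-95633558, plus strand: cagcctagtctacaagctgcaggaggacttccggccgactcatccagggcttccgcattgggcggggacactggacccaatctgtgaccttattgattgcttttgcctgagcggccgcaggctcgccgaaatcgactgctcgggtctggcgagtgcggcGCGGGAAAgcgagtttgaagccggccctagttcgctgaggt
Rfc3, chr5:151651209-151651408, minus strand: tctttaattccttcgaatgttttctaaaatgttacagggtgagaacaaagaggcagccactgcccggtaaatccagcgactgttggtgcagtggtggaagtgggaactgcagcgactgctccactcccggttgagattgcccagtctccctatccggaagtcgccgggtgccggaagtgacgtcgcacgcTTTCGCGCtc
Uhrf1, chr17:56304117-56304146, plus strand: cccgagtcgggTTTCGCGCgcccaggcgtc
Pole2, chr12:69228162-69228191, minus strand: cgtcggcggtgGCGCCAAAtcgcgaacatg
Lig1, chr7:13278841-13278870, plus strand: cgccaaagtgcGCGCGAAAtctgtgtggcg
Rrm2, chr12:24708054-24708253, plus strand, no match: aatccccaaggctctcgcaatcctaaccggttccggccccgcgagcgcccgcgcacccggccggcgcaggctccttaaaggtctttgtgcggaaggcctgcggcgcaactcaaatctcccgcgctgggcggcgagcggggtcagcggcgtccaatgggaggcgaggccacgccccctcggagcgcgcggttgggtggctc

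In Mcm5 the matches begin at positions -153 and -149, counted so that -1 is the base just before the start, and overlap, so that the capitals read as a single run. Mcm6 holds such an overlapping pair at -110 and -106 and a further match at -47. Rfc3 holds the printed match at -10 and a further match, GCGGGAAA, at position 1, just past the printed stretch. Any of these words was found in 15 of the 36 members (41.7%), in 3 of 34 G2 and mitosis genes with a window (8.82%) and in 704 of 27025 genes (2.6%). A shorter form, TTCCCGC or TTGGCGC, which overlaps the longer words, was found in 21 members (58.3%), 7 G2 and mitosis genes (20.6%) and 7.79% of all genes. The CHR, an element known from promoters of mitotic genes and searched as TTTGAA or TTCGAA, occurred in 7 members (19.4%), 25 of the 34 G2 and mitosis genes (73.5%) and 21.7% of all genes. The words CCAAT (61.1%, 73.5% and 41.1% in the same order) and GGGCGG, a GC box (77.8%, 79.4% and 38.2%), occurred in both lists. Median GC content of the windows was 60.0% in members, 59.7% in G2 and mitosis genes and 52.7% in all genes. Among members, the longer E2F words were present in 9 of 19 genes that rose at 3 d (47.4%) and in 6 of 16 that did not pass (37.5%). Counted only in the 100 bases before the start and the 50 after it, these were 6 of 19 (31.6%) and 5 of 16 (31.2%). Rrm2, Tk1, Tyms, Mcm10, Pcna, Rfc5 and Ccne1 rose and held neither E2F form in their windows, while Orc1, Cdc6, Mcm7, Rfc3, Gins3 and Pold1 held the longer words and did not pass. These shares describe letters in a window and were not tested.

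**Figure D1:**
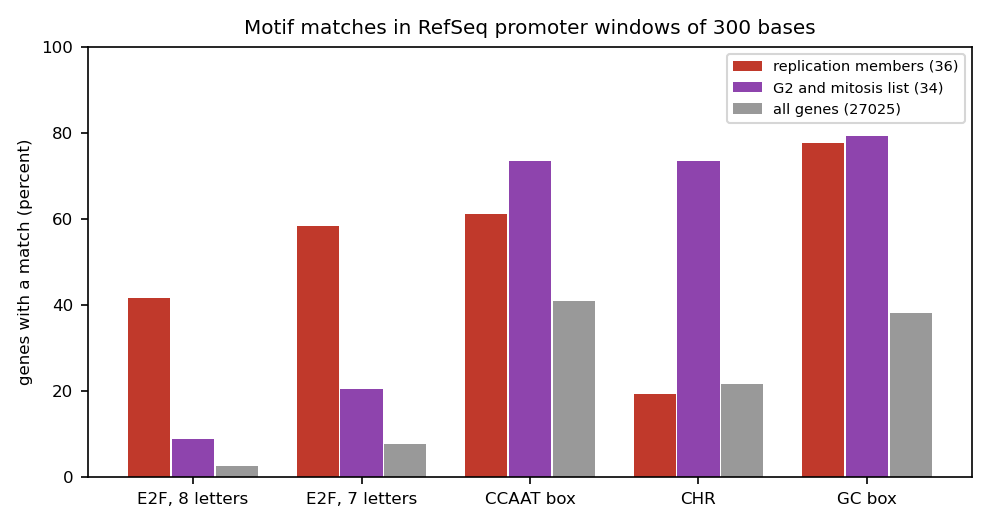
Percent of genes (y axis) with at least 1 match to each motif (x axis) in RefSeq windows, for 36 replication members, 34 G2 and mitosis genes and 27025 genes in all. The longer E2F words were found in 41.7% of members and the CHR in 73.5% of G2 and mitosis genes.

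Values throughout are log2 expression per gene on Affymetrix Mouse Gene 2.1 ST arrays, and a difference of 1 is a doubling. Members' levels averaged over all pools ran from 1.80 to 7.06 with a median of 4.01, and 7 lay under the median gene (3.13). None was filtered out for dim signal. Within a group, the correlation of its pools over genes was 0.989 to 0.992. A change is given with its standard error from limma, and "passed" means a Benjamini-Hochberg adjusted p under 0.05 over all 22180 genes. In pooled whole muscle, fewer cells of a type and less RNA per cell cannot be told apart.

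After 3 d of overload, 22 of 42 members rose against no overload and none fell, where 9.31% of all genes rose and 8.18% fell. The median change of the members was 0.72, against -0.04 over all genes, and 36 members lay above zero. Both overload pools lay above both pools without overload for 34 of 42 members, as for 25.1% of all genes. The largest rises were those of Rrm2 (6.66-fold), Mcm5 (5.81-fold) and Mcm6 (5.28-fold). By role, every chromatin assembly and maintenance methylation gene rose (4 of 4), as did 3 of 4 nucleotide supply enzymes and 4 of 7 polymerase and primase genes. Among licensing and MCM genes 5 of 10 rose, among clamp and clamp loader genes 2 of 5, among helicase activation genes 2 of 6, and 1 of 4 among single-strand binding and lagging strand genes.

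**Figure D2:**
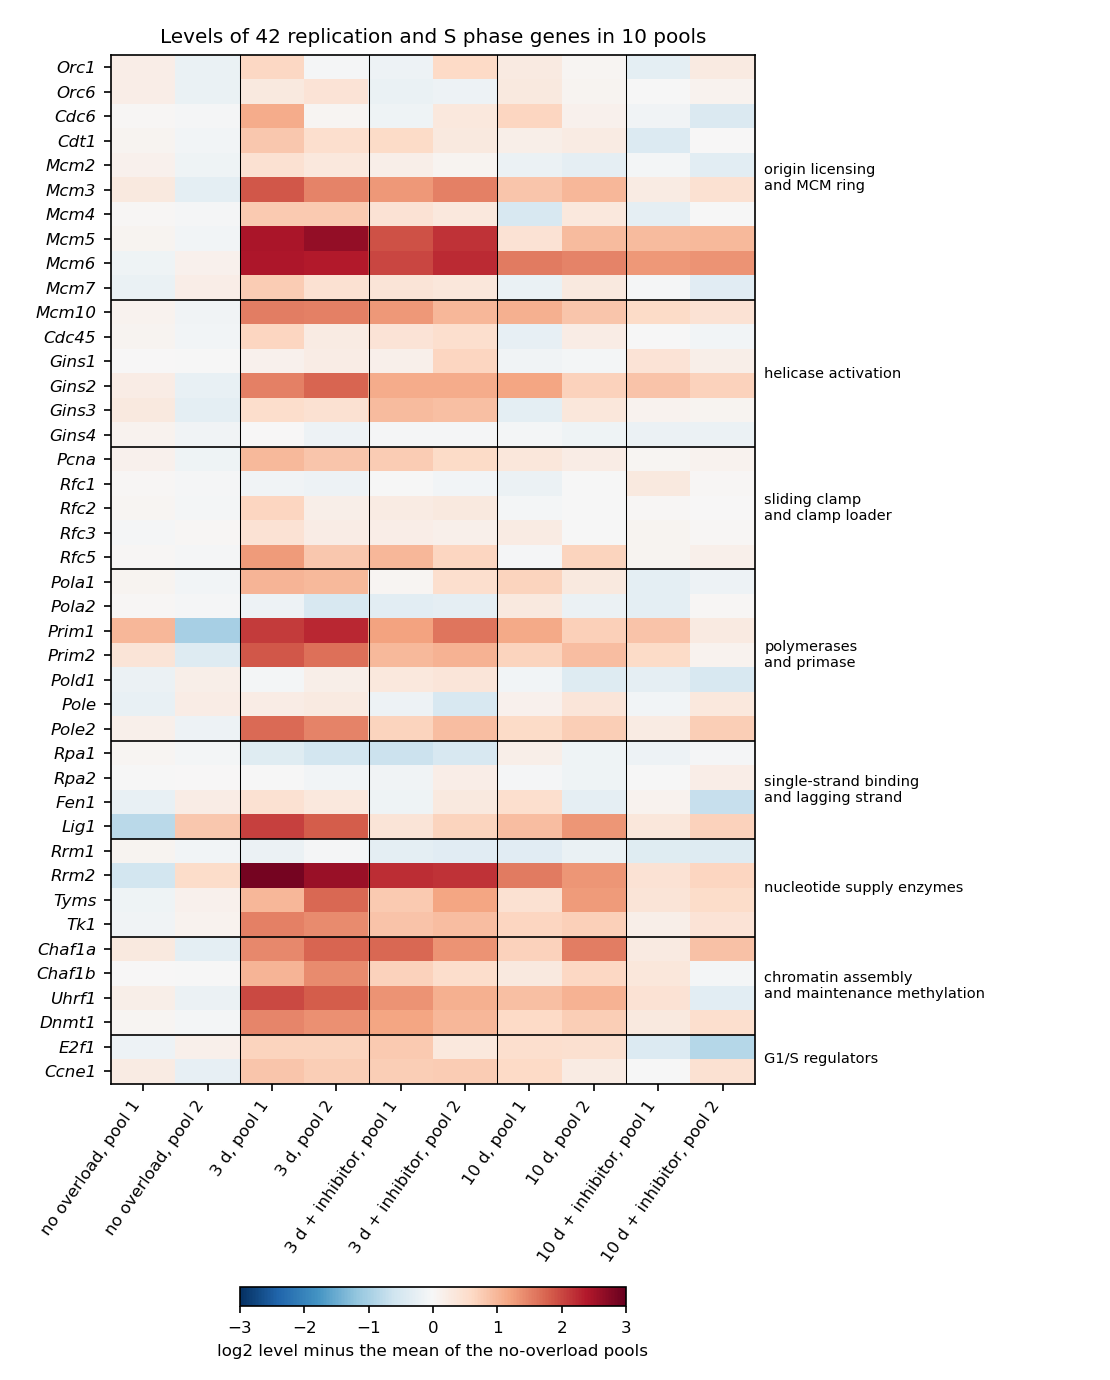
Log2 level of each of 42 measured members (rows, by role) in each of 10 pools (columns), minus the mean of the no-overload pools; red is higher and blue lower. The 3 d overload columns are the reddest for most rows, and the rows of Gins4, Rfc1 and Rpa2 are among the palest.

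Of the licensing factors, Cdt1, which brings the MCM ring to origins, rose by 0.66 ± 0.19 (adjusted p = 0.043, limma). Its partner Cdc6 changed by 0.58 ± 0.33 and did not pass, with 3.31 and 3.26 without overload and an unequal 4.39 and 3.35 in the 3 d pools. The origin recognition subunits Orc6 (0.35 ± 0.16) and Orc1 (0.29 ± 0.32) did not pass. Orc1 read 1.87 and 1.46 without overload, 2.29 and 1.62 at 3 d, 1.52 and 2.27 at 3 d with the inhibitor, 1.94 and 1.71 at 10 d, and 1.36 and 1.94 at 10 d with the inhibitor. These groups overlap throughout.

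Estimates for the MCM ring genes were uneven. Mcm5 read 3.01 and 2.86 without overload, 5.38 and 5.57 at 3 d, 4.85 and 5.11 at 3 d with the inhibitor, 3.37 and 3.89 at 10 d, and 3.89 and 3.90 at 10 d with the inhibitor. All overload pools of Mcm5 lay above those without overload, and the 3 d rise was 2.54 ± 0.19 (adjusted p = 0.00017, limma). Mcm6 read 3.62 and 3.90, then 6.18 and 6.14 at 3 d, 5.76 and 5.99 with the inhibitor, 5.32 and 5.25 at 10 d, and 5.06 and 5.12 with it. No group of Mcm6 overlapped another, and its 3 d rise of 2.40 ± 0.15 had the smallest adjusted p of the members (8.15e-05). Mcm3 rose by 1.68 ± 0.22 and Mcm4 by 0.80 ± 0.23 (adjusted p = 0.0488), while Mcm7 (0.61 ± 0.22, adjusted p = 0.0933) and Mcm2 (0.39 ± 0.16) did not pass. These proteins work as subunits of a single ring, yet the estimates for their transcripts spanned 0.39 to 2.54; that Mcm5 differs from Mcm2 in change was not tested.

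Estimates also varied among the helicase activation genes. Gins2, a subunit of the GINS complex, read 3.16 and 2.70 without overload, 4.43 and 4.67 at 3 d, 4.05 and 4.04 with the inhibitor, 4.11 and 3.62 at 10 d, and 3.78 and 3.61 with it. It rose by 1.62 ± 0.21, with every overload pool above both pools without overload. Mcm10, which joins the helicase as it is activated, read 1.93 and 1.70, then 3.35 and 3.32 at 3 d, 3.11 and 2.82 with the inhibitor, 2.88 and 2.65 at 10 d, and 2.39 and 2.26 with it, and rose by 1.52 ± 0.16. The other GINS subunits did not pass, at 0.48 ± 0.24 for Gins3, 0.17 ± 0.18 for Gins1 and -0.07 ± 0.14 for Gins4. Gins4 read 6.62 and 6.41 without overload, 6.53 and 6.36 at 3 d, 6.48 and 6.47 with the inhibitor, 6.45 and 6.39 at 10 d, and 6.34 and 6.35 with it. Cdc45, which binds the ring together with GINS, changed by 0.45 ± 0.20 and did not pass.

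Of the clamp genes, Pcna read 6.80 and 6.53 without overload, 7.64 and 7.51 at 3 d, 7.44 and 7.24 with the inhibitor, 7.01 and 6.90 at 10 d, and 6.72 and 6.78 with it. Its rise of 0.91 ± 0.15 at 3 d passed (adjusted p = 0.00397), and both 3 d groups lay above the pools without overload. Rfc5, a small clamp loader subunit, read 2.56 and 2.47, then 3.80 and 3.32 at 3 d, 3.51 and 3.16 with the inhibitor, 2.48 and 3.19 at 10 d, and 2.59 and 2.67 with it, and rose by 1.05 ± 0.25. The large subunit Rfc1 read 6.55 and 6.48, then 6.402 and 6.37 at 3 d, 6.502 and 6.44 with the inhibitor, 6.35 and 6.49 at 10 d, and 6.80 and 6.55 with it. Its change at 3 d was -0.13 ± 0.14, and Rfc2 (0.41 ± 0.17) and Rfc3 (0.34 ± 0.14) did not pass.

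Both primase subunits rose, as did a subunit each of polymerases alpha and epsilon. Prim1, the catalytic subunit of primase, read 3.52 and 1.52 without overload, 4.62 and 4.79 at 3 d, 3.72 and 4.14 with the inhibitor, 3.65 and 3.24 at 10 d, and 3.38 and 2.80 with it. The pools without overload lay far apart, and its rise of 2.18 ± 0.54 (adjusted p = 0.0236) had the widest error of the members. Prim2, the regulatory subunit, read 4.42 and 3.65, then 5.89 and 5.68 at 3 d, 5.01 and 5.07 with the inhibitor, 4.71 and 4.96 at 10 d, and 4.60 and 4.14 with it, and rose by 1.75 ± 0.26. Pola1, the catalytic subunit of polymerase alpha, rose by 0.998 ± 0.19 and Pole2, a subunit of polymerase epsilon, by 1.59 ± 0.21. Pole2 read 3.04 and 2.71 without overload, 4.57 and 4.36 at 3 d, 3.56 and 3.80 with the inhibitor, 3.44 and 3.61 at 10 d, and 3.11 and 3.62 with it, so that every overload pool lay above those without overload. The accessory subunit Pola2 (-0.31 ± 0.20), the catalytic subunit Pole (0.25 ± 0.21) and the delta catalytic subunit Pold1 (0.06 ± 0.18) did not pass. Pold1 read 3.87 and 4.199 without overload and 3.98 and 4.201 at 3 d, 4.34 and 4.40 with the inhibitor, 3.95 and 3.65 at 10 d, and 3.75 and 3.55 with it. Pola2 read 6.498 and 6.44, then 6.32 and 5.99 at 3 d, 6.16 and 6.20 with the inhibitor, 6.75 and 6.29 at 10 d, and 6.17 and 6.501 with it. The 3 d pools of Pold1 overlapped those without overload, and those of Pola2 lay below them.

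Lig1, the ligase that seals Okazaki fragments, read 2.18 and 3.81 without overload, 5.05 and 4.81 at 3 d, 3.395 and 3.65 with the inhibitor, 3.93 and 4.32 at 10 d, and 3.33 and 3.68 with it. It rose by 1.93 ± 0.44 at 3 d (adjusted p = 0.0162), and the pools with the inhibitor overlapped those without overload. The single-strand binding subunit Rpa1 ran the other way in its estimate, -0.45 ± 0.16 (adjusted p = 0.0869), from 7.08 and 6.98 to 6.67 and 6.48. It read 6.39 and 6.54 at 3 d with the inhibitor, 7.22 and 6.90 at 10 d and 6.87 and 6.999 at 10 d with it, so that every 3 d pool lay below every other pool. It passed as lower at 3 d under 4 of 6 other settings of the analysis. Its partner Rpa2 read 5.72 and 5.76 without overload, 5.72 and 5.66 at 3 d, 5.64 and 5.94 with the inhibitor, 5.71 and 5.61 at 10 d, and 5.72 and 5.93 with it. The change of Rpa2 at 3 d was -0.05 ± 0.15, and that of the flap nuclease Fen1 was 0.39 ± 0.33.

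Ribonucleotide reductase, which makes deoxynucleotides, is built from a large subunit encoded by Rrm1 and a small subunit encoded by Rrm2. Rrm2 read 1.77 and 2.86 without overload, 5.20 and 4.91 at 3 d, 4.52 and 4.49 with the inhibitor, 3.87 and 3.65 at 10 d, and 2.74 and 2.96 with it. Its rise of 2.74 ± 0.31 (adjusted p = 0.00073) was the largest estimate among the members, and the 10 d inhibitor pools overlapped those without overload. Rrm1 read 7.23 and 7.05 without overload, 6.97 and 7.11 at 3 d, 6.85 and 6.79 with the inhibitor, 6.81 and 6.94 at 10 d, and 6.78 and 6.75 with it. Its change at 3 d was -0.10 ± 0.13; both pools of the 3 d inhibitor, 10 d and 10 d inhibitor groups lay below those without overload, and none of these differences passed (-0.32, -0.26 and -0.37, each ± 0.13). Thymidine kinase 1 (Tk1) read 3.77 and 3.97, then 5.37 and 5.29 at 3 d, 4.72 and 4.80 with the inhibitor, 4.52 and 4.58 at 10 d, and 4.04 and 4.29 with it. Tk1 rose by 1.46 ± 0.14, with no overlap between any groups, and thymidylate synthase (Tyms) rose by 1.35 ± 0.31, from 3.51 and 3.78 to 4.63 and 5.36.

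All 4 genes that rebuild chromatin behind the fork rose at 3 d, and 1 of them, Dnmt1, was still called at 10 d. Uhrf1, which recruits the maintenance methyltransferase to newly copied DNA, read 2.92 and 2.58 without overload, 4.74 and 4.57 at 3 d, 4.09 and 3.82 with the inhibitor, 3.66 and 3.79 at 10 d, and 3.19 and 2.43 with it. Its rise was 1.90 ± 0.25 at 3 d. The methyltransferase Dnmt1 rose by 1.41 ± 0.15, from 5.74 and 5.61 to 7.14 and 7.04, and read 6.86 and 6.66 with the inhibitor, 6.28 and 6.41 at 10 d, and 5.96 and 6.17 with it. Subunits of the histone chaperone CAF-1 rose by 1.60 ± 0.34 (Chaf1a) and 1.22 ± 0.20 (Chaf1b). Chaf1a read 2.05 and 1.45, then 3.20 and 3.51 at 3 d, 3.48 and 3.11 with the inhibitor, 2.44 and 3.29 at 10 d, and 2.01 and 2.64 with it, and Chaf1b read 3.13 and 3.12, then 4.14 and 4.54 at 3 d, 3.81 and 3.64 with the inhibitor, 3.40 and 3.75 at 10 d, and 3.47 and 3.06 with it. At 10 d with the inhibitor Chaf1b overlapped the pools without overload.

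Of the G1/S regulators, cyclin E1 (Ccne1) rose by 0.78 ± 0.22 (adjusted p = 0.0413), from 3.33 and 2.82 to 3.89 and 3.81, and read 3.81 and 3.82 with the inhibitor, 3.66 and 3.32 at 10 d, and 3.06 and 3.52 with it. E2f1 changed by 0.67 ± 0.21 and did not pass (adjusted p = 0.0632). It read 2.57 and 2.86 without overload, 3.39 and 3.37 at 3 d, 3.51 and 3.03 with the inhibitor, 3.21 and 3.19 at 10 d, and 2.31 and 1.86 with it. Every overload pool of E2f1 without inhibitor lay above the pools without overload, and both 10 d pools with the inhibitor lay below them.

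**Figure D3:**
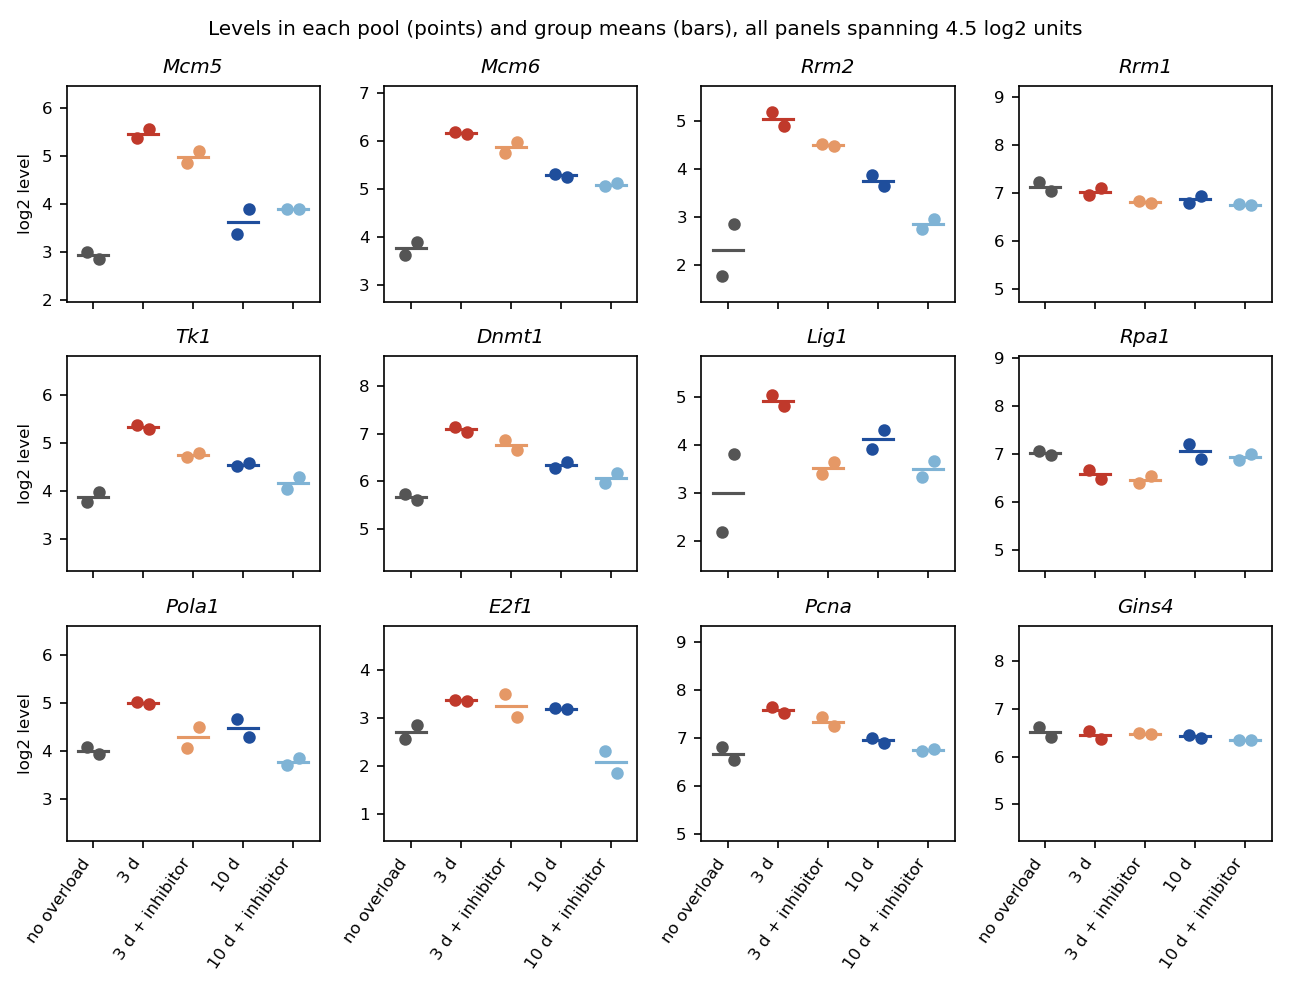
Log2 level of 12 members in each pool (points) with the group mean (bar), in panels that all span the same range of log2 units. Mcm6 and Tk1 step down from 3 d to 10 d with no overlap between any groups, all Gins4 pools lie between 6.34 and 6.62, all Rrm1 pools between 6.75 and 7.23, and E2f1 is lowest at 10 d with the inhibitor.

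The count at 3 d depended on single pools, as 16 members passed without 3 d overload pool 1, 17 without 3 d overload pool 2 and 16 without no-overload pool 2. Of the 22 members, 14 passed in every omission of a pool: Mcm3, Mcm5, Mcm6, Mcm10, Gins2, Pcna, Pola1, Prim2, Pole2, Rrm2, Tk1, Chaf1b, Uhrf1 and Dnmt1. Prim1 (log2 1.19 to 3.18 over the omissions, adjusted p up to 0.106) and Lig1 (1.12 to 2.75, adjusted p up to 0.0949) were lost without either 3 d overload pool. Leaving out no-overload pool 1 or no-overload pool 2 ended the calls of Tyms (0.99 to 1.72) and Rfc5 (0.81 to 1.29); that of Tyms also ended without 3 d overload pool 2 and that of Rfc5 without 3 d overload pool 1. Chaf1a (1.30 to 1.90) was lost without 3 d overload pool 2 and without no-overload pool 2. Ccne1 passed in 5 of 10 omissions, and Cdt1 and Mcm4 in 2. These last 3 were also lost when every array was shifted to a common median, which lowered the members' median change to 0.53.

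**Figure D4:**
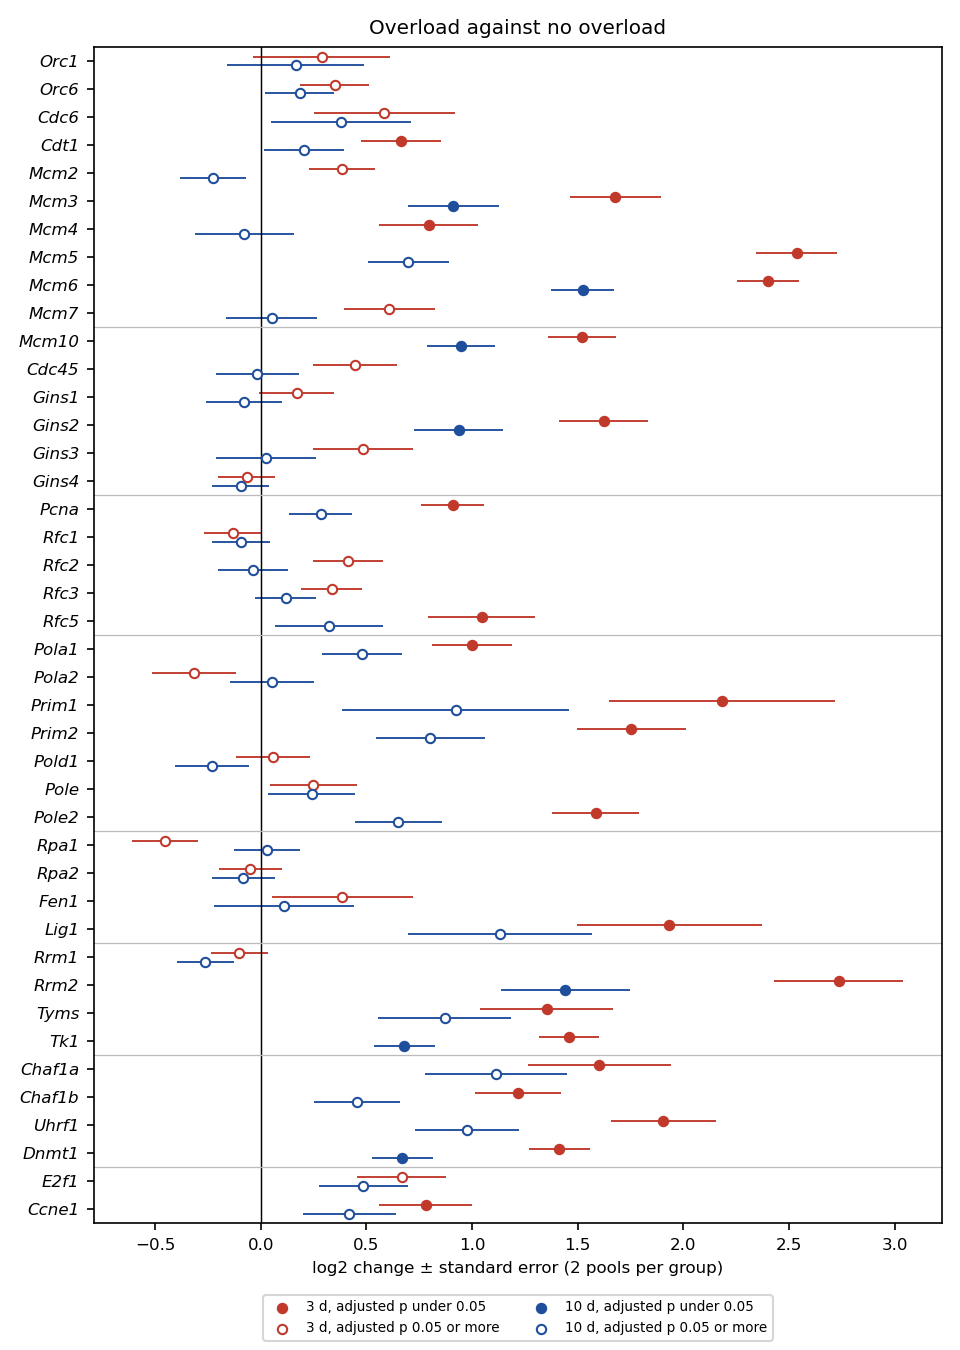
Log2 change against no overload (x axis, ± standard error, 2 pools per group) for each member at 3 d (red) and 10 d (blue); filled points have an adjusted p under 0.05. At 3 d 22 points are filled and at 10 d 7, and for 39 of 42 members the blue point lies to the left of the red one.

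Markers of some cell types also differed between these groups. The summed linear level of 14 macrophage and monocyte genes was 425.9 and 498.8 without overload, 3714 to 4229 at 3 d, 2857 to 3376 at 3 d with the inhibitor, 1258 to 1866 at 10 d and 1017 to 1136 at 10 d with the inhibitor; 13 of the 14 rose at 3 d. Sums over 10 satellite cell and myoblast genes were 408.1 and 498.1, then 1716 to 1790, 1644 to 1890, 1032 to 1349 and 1295 to 1436 in the same order, with 7 of 10 rising at 3 d. Sums over 9 fibroblast genes were 2590 and 2721, then 6662 to 6883, 4859 to 4974, 6624 to 11130 and 4627 to 4689, with 6 of 9 rising at 3 d. The muscle label was borne out by 10 mature fibre genes, whose sums were 24730 to 27640 in the 3 d groups and 31370 to 32170 in all other pools, with 3 of 10 falling at 3 d. Of 7 B cell, 7 T and NK cell and 8 red cell precursor genes none rose or fell at 3 d, and of 7 endothelial genes 1 fell. Array values hold no true zero, so no marker can be called absent. In 3 d overload pool 1 the sum over 5 granulocyte precursor genes was 99.62, against 12.14 to 17.23 in the other 9 pools, and 0 of 5 rose at 3 d. Sums over 9 neutrophil genes were 33.89 and 42.1 without overload, 346.7 and 50.94 in 3 d overload pools 1 and 2, 109.6 and 124.8 at 3 d with the inhibitor, 30.17 and 32.83 at 10 d, and 169.6 and 219.1 at 10 d with the inhibitor, and 1 of 9 rose at 3 d. That pool also held the highest value of 23 of the 42 members, against 7 for its partner. Without it the members' median change at 3 d was 0.70 and the count 16, and the part of any of these cells in the result was not tested.

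At 10 d of overload, 7 members were still higher than without overload and none was lower, where 3.9% of all genes were higher and 1.23% lower. They were Mcm3 (0.91 ± 0.22, adjusted p = 0.0499), Mcm6 (1.52 ± 0.15, adjusted p = 0.00241), Mcm10 (0.95 ± 0.16), Gins2 (0.94 ± 0.21), Rrm2 (1.44 ± 0.31), Tk1 (0.68 ± 0.14) and Dnmt1 (0.67 ± 0.15). The members' median change was 0.30, and 20 of 42 had both 10 d pools above both pools without overload, as did 22.1% of all genes. Both comparisons use the same pools without overload. The calls at 10 d were fragile. In each omission of a pool 2 to 4 members passed, counting members outside these 7. Mcm6 was the single one of the 7 that passed in all 10 (log2 1.38 to 1.66). Mcm3, Gins2 and Dnmt1 were lost whichever pool was left out, Rrm2 passed in 1 omission, Tk1 in 2 and Mcm10 in 7.

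Compared directly, 10 d lay below 3 d for 39 of 42 members, with a median difference of -0.49 (0.01 over all genes). Both 10 d pools lay below both 3 d pools for 30 members, as for 24.2% of all genes. The fall passed for Mcm5 (-1.84 ± 0.19, adjusted p = 0.00305), Mcm6 (-0.88 ± 0.15), Pcna (-0.62 ± 0.15), Pole2 (-0.93 ± 0.21), Rrm2 (-1.29 ± 0.31), Tk1 (-0.78 ± 0.14) and Dnmt1 (-0.74 ± 0.15), and no member rose; of all genes 3.38% fell and 2.7% rose. Mcm5 dropped 3.58-fold and its 10 d level did not pass against no overload (0.70 ± 0.19, adjusted p = 0.0752), whereas Mcm6 kept a 2.87-fold excess at 10 d. Mcm5 alone kept its call in every omission (-2.10 to -1.58). Between 1 and 8 members passed, with 1 left without 3 d overload pool 1, 3 d overload pool 2 or 10 d overload pool 1, 2 without 10 d overload pool 2, and 4 without either 3 d inhibitor pool. Group means were highest at 3 d of overload for 32 of 42 members and lowest without overload for 21, which was not counted over all genes.

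The inhibitor question was whether blocking PDGF signalling altered these genes in overloaded muscle. No member passed at 3 d or at 10 d. At 3 d no gene on the array passed (0% higher and 0% lower by limma, with 2011 genes at an unadjusted p under 0.05). At 10 d 5 genes were higher (0.0225%) and 18 lower (0.0812%). The members' estimates lay mostly below zero, 34 of 42 at 3 d with a median of -0.27 and 35 of 42 at 10 d with a median of -0.20, against 0.03 and 0.01 over all genes. Both inhibitor pools lay below both pools of overload alone for 23 members at 3 d and 16 at 10 d, as for 17.7% and 19.5% of all genes. An unadjusted p under 0.05 was reached by 12 of 42 members at 3 d and 7 of 42 at 10 d. Over all 22180 genes these counts were 2011 and 2352.

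Cell markers differed between the same pools. All 9 fibroblast genes lay below zero with the inhibitor at 3 d (median -0.49, 0 called) and at 10 d (median -1.02, 0 called, 9 of 9 at an unadjusted p under 0.05), with both inhibitor pools below both others for each. Macrophage and monocyte genes lay below zero for 12 of 14 at 3 d (median -0.51) and 13 of 14 at 10 d (median -0.55), with none called. Neutrophil genes lay above zero for 9 of 9 at 10 d (median 2.39, 1 called higher) and for 4 of 9 at 3 d (median -0.02). Granulocyte precursor genes lay below zero for 5 of 5 at 3 d (median -1.15) and 2 of 5 at 10 d (median 0.39), with none called. Their sums at 3 d were 99.62 and 13.48 in overload pools 1 and 2, and 14.5 and 13.55 with the inhibitor. The members' median inhibitor change at 3 d was -0.21 without overload pool 1 and -0.38 without overload pool 2. Satellite cell and myoblast genes lay below zero for 5 of 10 at 3 d and 4 of 10 at 10 d, with medians of 0.01 and 0.15. The part of these cells in the members' estimates was not tested.

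**Figure D5:**
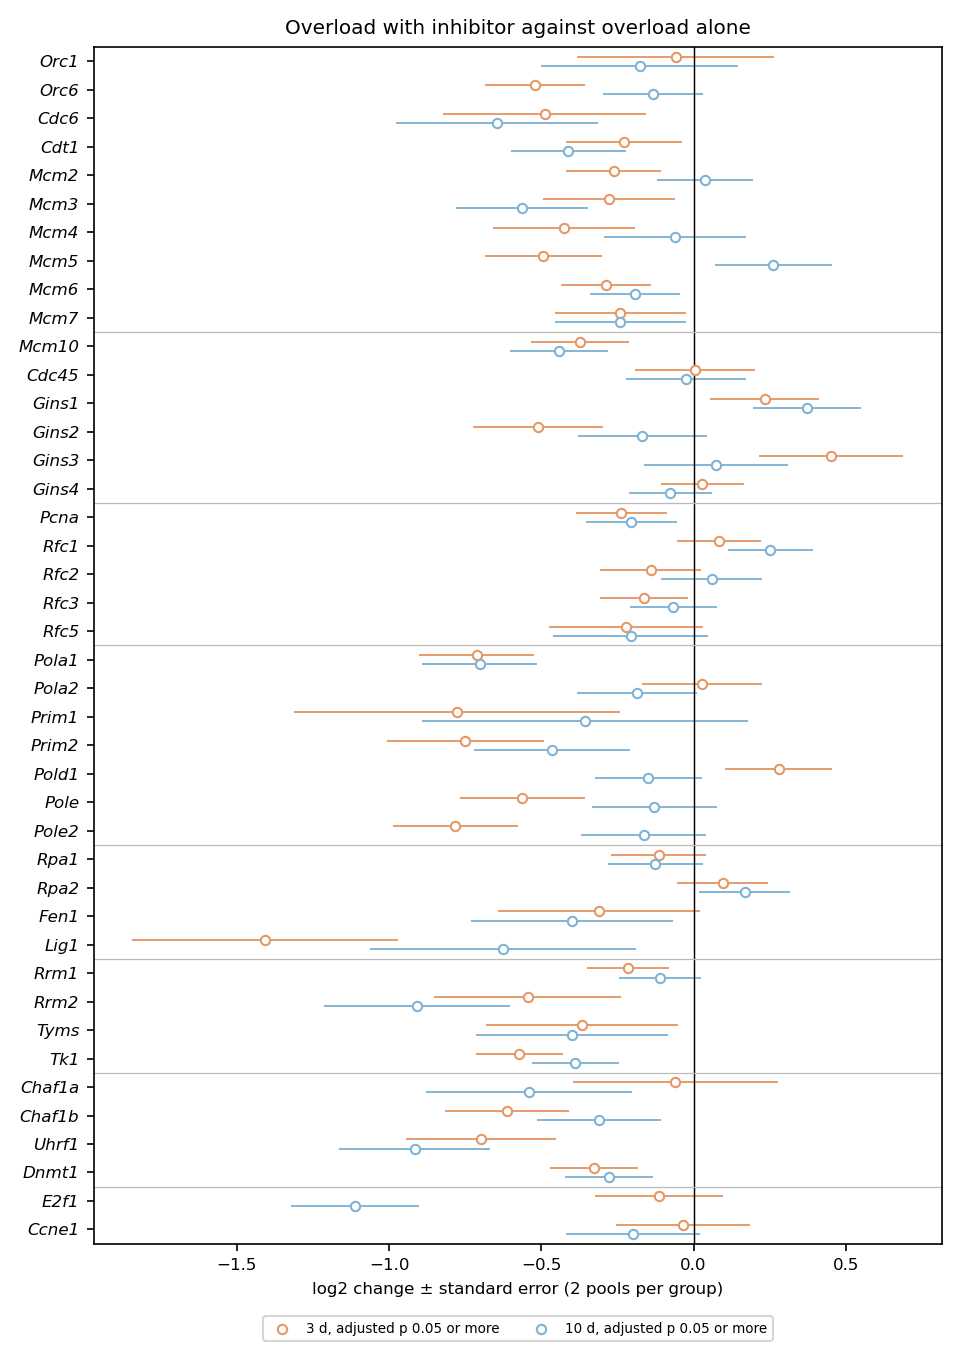
Log2 change of overload with inhibitor against overload alone (x axis, ± standard error, 2 pools per group) for each member at 3 d (orange) and 10 d (light blue). All points are open, since no adjusted p is under 0.05, and most lie left of zero.

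The members with the smallest p at 3 d were Tk1 (-0.57 ± 0.14, adjusted p = 0.3, 95% interval -0.90 to -0.25), Pole2 (-0.78 ± 0.21), Pola1 (-0.71 ± 0.19), Lig1 (-1.41 ± 0.44), Orc6 (-0.52 ± 0.16) and Chaf1b (-0.61 ± 0.20). In all 6 both inhibitor pools lay below both pools without it, which is not independent of their choice by p in the same comparison. Pole2 read 4.57 and 4.36 at 3 d against 3.56 and 3.80 with the inhibitor, and Chaf1b 4.14 and 4.54 against 3.81 and 3.64. Orc6 read 5.36 and 4.96 without overload, 5.46 and 5.56 at 3 d, 4.96 and 5.02 with the inhibitor, 5.45 and 5.25 at 10 d, and 5.16 and 5.27 with it. Gins3 (0.45 ± 0.24), Pold1 (0.28 ± 0.18) and Gins1 (0.23 ± 0.18) had the highest estimates in the other direction, and neither they nor the 6 passed.

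At 10 d the smallest p belonged to E2f1 (-1.11 ± 0.21, adjusted p = 0.132, 95% interval -1.59 to -0.63), Pola1 (-0.70 ± 0.19), Uhrf1 (-0.92 ± 0.25), Rrm2 (-0.91 ± 0.31), Mcm10 (-0.44 ± 0.16) and Tk1 (-0.39 ± 0.14). Pola1 read 4.08 and 3.93 without overload, 5.03 and 4.98 at 3 d, 4.07 and 4.51 with the inhibitor, 4.66 and 4.30 at 10 d, and 3.70 and 3.86 with it. Its inhibitor pools at 10 d thus lay below the pools without overload, although that difference did not pass (-0.22 ± 0.19). Mcm5 and Mcm6, the MCM genes with the largest rises, had 95% intervals at 10 d of -0.18 to 0.70 and -0.53 to 0.14.

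Averaged over both times, 37 of 42 members lay below zero with a median of -0.27 (0.02 over all genes) and none passed, while 14 genes of the array were higher (0.0631%) and 50 lower (0.225%). The unadjusted p was under 0.05 for 18 of 42 members, and for 2817 of all 22180 genes. Nearest to the threshold were Pola1 (-0.71 ± 0.13, adjusted p = 0.075), Tk1 (-0.48 ± 0.10, adjusted p = 0.0974) and Uhrf1 (-0.81 ± 0.18, adjusted p = 0.107), followed by E2f1 (-0.61 ± 0.15), Mcm10 (-0.41 ± 0.11) and Rrm2 (-0.73 ± 0.22). With genes dimmer than the median gene left out, Pola1 and Tk1 passed, and with a prior variance that follows the mean level Pola1 did. The difference between the inhibitor's effects at the 2 times passed for no member and no gene (0% higher, 0% lower, 1434 genes at an unadjusted p under 0.05), with a member median of 0.02. Its smallest p belonged to E2f1 (-0.998 ± 0.30, adjusted p = 0.681) and Mcm5 (0.75 ± 0.27, adjusted p = 0.708), the 2 members with an unadjusted p under 0.05, then Pole2 (0.62 ± 0.29), Pold1 (-0.43 ± 0.25), Orc6 (0.39 ± 0.23) and Pole (0.43 ± 0.29). Pole read 3.71 and 4.14 without overload, 4.16 and 4.18 at 3 d, 3.77 and 3.45 with the inhibitor, 4.04 and 4.28 at 10 d, and 3.84 and 4.23 with it, with overlap between most groups.

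Overloaded muscle with the inhibitor still stood above muscle without overload at 3 d. There 14 members were higher, with a member median of 0.49, where 7.71% of all genes were higher and 6.51% lower. They were Rrm2 (2.19 ± 0.31), Mcm6 (2.11 ± 0.15), Mcm5 (2.04 ± 0.19), Chaf1a (1.54 ± 0.34), Mcm3 (1.397 ± 0.22), Uhrf1 (1.21 ± 0.25), Mcm10, Gins2, Dnmt1 (1.09 ± 0.15), Prim2, Gins3 (0.93 ± 0.24, adjusted p = 0.0323), Tk1, Pole2 and Pcna. Rpa1 was the single member that was lower (-0.57 ± 0.16, adjusted p = 0.0447). Lig1 (0.53 ± 0.44) and Pola1 (0.29 ± 0.19) did not pass. This comparison and that of overload alone use the same pools without overload. The count was 7 without 3 d inhibitor pool 1 and 8 without no-overload pool 2, and Mcm3, Mcm5, Mcm6, Mcm10, Rrm2, Tk1 and Dnmt1 passed in every omission. Gins3 passed in 3 omissions and Rpa1 in 2. For 30 of 42 members the inhibited mean lay between that without overload and that of overload alone at 3 d, and for 21 at 10 d. This order was not counted over all genes, and no member's inhibitor difference passed at either time.

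At 10 d with the inhibitor only Mcm6 stood above no overload (1.33 ± 0.15, adjusted p = 0.00598), where 1.13% of all genes were higher and 0.428% lower. The members' median change was 0.09, and Mcm5 followed at 0.96 ± 0.19 (adjusted p = 0.0512). The call of Mcm6 was lost without 10 d inhibitor pool 1 (adjusted p = 0.0661). Leaving out 10 d overload pool 1 or pool 2 brought the count to 2, with Mcm5 added. From 3 d to 10 d with the inhibitor, Mcm3 (-1.05 ± 0.22), Mcm5 (-1.09 ± 0.19), Mcm6 (-0.78 ± 0.15), Rrm2 (-1.66 ± 0.31), Uhrf1 (-1.15 ± 0.25), Dnmt1 (-0.69 ± 0.15) and E2f1 (-1.18 ± 0.21, adjusted p = 0.0206) fell, with a member median of -0.51, where 2.66% of all genes fell and 1.98% rose. No member kept this call in every omission, and none was left without 3 d inhibitor pool 1 or 10 d inhibitor pool 2, 1 without 3 d inhibitor pool 2 and 2 without 10 d inhibitor pool 1.

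Genes of the wider S phase program were counted by list at 3 d, where 9.31% of all genes rose and 8.18% fell. No list was tested against these shares. Of 35 further licensing and fork genes 13 rose and Rnaseh2a fell (median 0.45), led by Mms22l (2.72 ± 0.25), which acts at stalled forks, Ticrr (1.80 ± 0.33), which helps fire origins, and Wdhd1 (1.69 ± 0.23), which couples polymerase alpha to the helicase. Of 12 chromatin copying genes 7 rose (median 0.60), led by the helicase Hells (2.60 ± 0.24) and the histone chaperone Asf1b (2.18 ± 0.34). Of 21 further nucleotide supply genes 5 rose, among them Dctd, Mthfd2 and Dck, and 2 fell, Ppat and Rrm2b (median 0.18). Rrm2b encodes the alternative small subunit of ribonucleotide reductase that does not depend on S phase, and it fell by 1.02 on the log2 scale while Rrm2 rose: it read 7.27 and 7.02 without overload and 6.08 and 6.19 at 3 d.

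Of 33 E2F and cyclin control genes 11 rose and 4 fell (median 0.37), beside 9.31% and 8.18% of all genes. The risers included E2f8 (2.86 ± 0.30), an E2F that represses, Skp2 (2.45 ± 0.24), which targets the inhibitor p27 for destruction, and Myc. The fallers were E2f6, Cdkn1b, which encodes p27, Rbl2, a relative of the retinoblastoma protein, and Tfdp2. Of 18 checkpoint and repair genes 11 rose and Ung fell (median 0.77), led by Exo1, Rad18 and Rad51ap1. Of 29 histone genes chosen by symbol 5 rose and 1 fell (median 0.26).

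Of all genes, 9.31% rose at 3 d, 3.9% were above no overload at 10 d and 3.38% fell from 3 d to 10 d. Genes of G2 and mitosis moved further than the replication members in their estimates. Of 39, 36 rose at 3 d and Pttg1 fell, with a median of 2.42 against 0.72 for the members, led by the proliferation marker Mki67 (4.59 ± 0.22), Ect2 and the cyclin Ccnb2. At 10 d 22 were above no overload (median 1.16); this count was 9 without no-overload pool 1, 13 without no-overload pool 2, 10 without 10 d overload pool 2 and 6 with the compared arrays alone. From 3 d to 10 d 25 fell (median -1.36), and 8 did so without 3 d overload pool 1, 14 without 3 d overload pool 2 and 12 without 10 d overload pool 1.

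With the inhibitor no G2 or mitosis gene passed at 3 d (median -0.95). At 10 d Top2a (-1.62 ± 0.19) and Prc1 (-1.55 ± 0.19, both adjusted p = 0.0371) were lower, with a median of -0.83 over the list. Of all genes 0.0812% were lower in that comparison. Top2a read 4.503 and 4.80 at 10 d of overload and 3.25 and 2.83 with the inhibitor. This count of 2 was 0 with the compared arrays alone and without either 3 d inhibitor pool, either no-overload pool, 10 d overload pool 2 or 10 d inhibitor pool 2. It was 1 without either 3 d overload pool or 10 d inhibitor pool 1, 5 without 10 d overload pool 1, 7 with dim genes left out and 8 with a prior that follows the mean level. In the inhibitor effect averaged over both times 11 of the 39 were lower (median -0.91), beside 0.225% of all genes. That count was 0 without either 3 d inhibitor pool, 1 without 10 d overload pool 2, 3 without 3 d overload pool 2 or 10 d inhibitor pool 2, 4 without 3 d overload pool 1, 6 without 10 d inhibitor pool 1, and 18 with the prior that follows the mean level. No test compared this list with the members, and the counts of the other S phase lists were not recomputed with a pool left out.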

How the data were processed

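RNA of mouse plantaris muscle was extracted with Qiazol and measured on Affymetrix Mouse Gene 2.1 ST arrays, per the labels' protocols, which name more than 1 labelling kit. The authors deposited log2 expression values for 41345 probe sets and 10 arrays; RMA, oligo and limma are named, without versions, per the submitters' processing notes. RMA equalizes array distributions over all probes, so a shift shared by most of them is not measured, and changes of dim genes are compressed. The medians of the 22180 genes used here could still differ between arrays. The sources used here do not name the annotation or genome build behind the values.

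From these, probe sets with exactly 1 symbol (23521) gave 22180 genes, and the brightest stood for a gene with several. A single limma model (3.58.1, R 4.3.3) with the 5 group means was fitted to all genes and arrays (5 residual and 3.58 prior degrees of freedom, prior SD 0.18), and tested in 10 comparisons with Benjamini-Hochberg adjustment, threshold 0.05. Comparisons of a time or treatment share pools. The number of arrays limits precision. The steps were tested on simulated data. Pool numbers are names only. Other settings tried were other probe sets, normalizations, filter, prior and arrays, and each array left out.

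The members, lists, markers and tests were chosen with earlier results of these data known. Values in every pool are given for the members of each role with the 2 largest and the smallest change at 3 d, for the 6 smallest p in each inhibitor comparison, and for members moving against their role; pool values of Cdc6, Dnmt1, Tyms, Rrm2b and Top2a were added after they were seen. Of other lists up to 3 called genes are named, with the fallers.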

Additional observations from a re-analysis of the deposited data

How the results depend on the processing

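No called member changed direction under any setting. Of 59 called member results, 30 stayed called under each of the 6 other settings that tested the member, and fewer did so in every omission of a pool. With dim genes left out, 35 of the 42 members were tested. At 3 d of overload the count of 22 stayed between 18 and 23 under other settings. For 10 d against no overload the count of 7 became 3 at a common median of the arrays, 2 after quantile normalization and 0 with the 4 compared arrays alone. For 10 d against 3 d it became 15 with dim genes left out, 12 with a prior that follows the mean level and 1 with the compared arrays alone. For the averaged inhibitor effect it rose from 0 to 2 with dim genes left out and to 1 with that prior. For 10 d with inhibitor against none it was 2, 2 and 0 under these 3 settings, and for 10 d against 3 d with inhibitor 11 with dim genes left out and 2 with the compared arrays alone. Fewer genes tested, fewer arrays and the shift of each array to a common median are part of these settings' construction. For the others the cause was not tested. Over the 22180 genes, array medians before that shift were 2.99 and 3.00 without overload, 3.21 and 3.165 at 3 d, and 3.12 and 3.12 at 3 d with inhibitor. At 10 d they were 3.11 and 3.22, and 3.09 and 3.07 with inhibitor. Over all probe sets they ran from 2.40 to 2.45. Leaving out single pools gave 16 to 21 members at 3 d, 2 to 4 at 10 d, 1 to 8 for 10 d against 3 d, 7 to 17 at 3 d with inhibitor against none, 0 to 2 at 10 d with inhibitor against none, 0 to 6 for 10 d against 3 d with inhibitor, and 0 for the inhibitor at either time, their average and their difference. At a common median, members' median changes were 0.53 at 3 d, 0.14 at 10 d, and -0.20 and -0.11 for the inhibitor at these times. With E2F words counted only in the 100 bases before the start and the 50 after it, the shares were 30.6% of members and 1.45% of all genes, and for the CHR 8.33% and 9.87%. No paired analysis was possible because the labels carry no replicate numbers shared between groups. With 2 pools per group, a member that did not pass is not shown to be unchanged.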
